A study of Rattus norvegicus with 4 samples.

Results

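The genes of the AP-1 transcription factors and of the related injury factor Atf3 were examined for trimethylation of histone H3 at lysine 27 (H3K27me3) in the uninjured sciatic nerve of the rat. The 10 genes, Jun, Junb, Jund, Fos, Fosb, Fosl1, Fosl2, Atf3, Batf and Batf3, were chosen by name, and a peak belonged to a gene where the deposited annotation named it as that peak's gene, which is the gene whose transcription start site (TSS) lies nearest to the peak's centre. Of the 129550 peaks, 44 named 7 of the 10 genes, and no peak named Junb, Jund or Fosl2. The samples were 2 H3K27me3 libraries and 2 libraries of input chromatin, all from male Sprague Dawley rats of 42 postnatal days. Every nerve came from the limb given a sham operation, a cut through the skin only, while the opposite sciatic nerve was transected, and was taken 1 day later. The control nerve thus came from an animal that had itself been injured, and the transected side was not analysed here.

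AP-1 is a dimer of basic leucine zipper (bZIP) proteins. Jun proteins pair with each other or with Fos proteins, Batf and Batf3 pair with Jun proteins in immune cells, and Atf3 is a stress-induced member of the wider family. In peripheral nerve, c-Jun is known as a driver of the repair state that Schwann cells enter after injury, and Jun and Atf3 are widely used markers of injured neurons and glia. H3K27me3 is placed by the Polycomb complex PRC2 and marks genes kept silent, often over CpG-rich promoters.

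The H3K27me3 libraries were combined by the authors into a list with 1 value per peak, so no value has a replicate error and no test over samples was possible. Values are given with the same measure over all genes. The nerve is a mixture of Schwann cells, fibroblasts, vessels and immune cells, and a mark in few cells cannot be told apart from a weak mark in many. The assay measures no RNA, so neither the cell types nor the activity of the genes was checked. The score is the authors' value per peak on no stated scale. It was not divided by the width, so a high score can come from a wide peak and a rank by score is not one of density. Its low values were whole multiples of 0.206, and each interval in brackets after a score is a 95% Poisson interval that assumes 1 tag per step and holds no error other than that of counting.

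The mark lay at the start of 3 of the 10 genes, Fosl1, Batf and Batf3, and was not found at Jun, Fos, Fosb or Atf3. A promoter peak was a peak of the gene whose nearer edge lay within 1000 bp of the TSS. Over all 23154 protein-coding genes 17.2% had a promoter peak, which is the background for this count of 3 in 10. The 23154 genes come from a newer gene table than the authors' annotation. Any gene that this annotation lacks counts as without a peak, here and below. How many it lacks was not tested, so the shares of all genes may be too low. A peak of any distance named 7 of the 10 genes and 44.5% of all genes. A promoter peak within the top 25% of scores (9.9 or more) was present at the same 3 genes, against 12.6% of all genes. Over the 7 genes the median distance from the TSS to the centre of the nearest peak was 3184 bp, against 2860 bp over the 10296 protein-coding genes with a peak, and the median of the highest score was 41.9 against 25.8. The 44 peaks themselves were small, with a median score of 4.13 against 4.54 in the whole list, and 23 of them (52.3%) had the smallest width of 150 bp, against 45.2% of all peaks. The 25 peaks of Fosl1, Batf and Batf3 held 71.6% of the summed score of the 44. These 3 genes were grouped by their promoter peaks, so this share is a description, and no like share was computed over all genes.

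**Figure D1:**
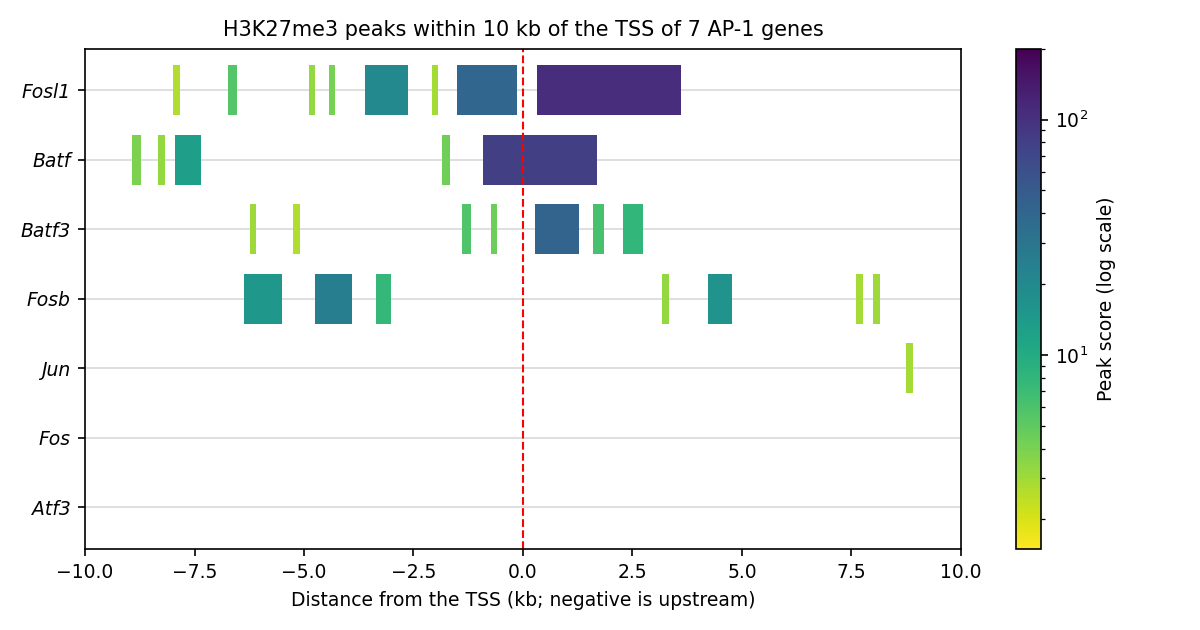
Peaks within 10 kb of the TSS of the 7 AP-1 genes that a peak names, drawn along the direction of transcription (x axis, kb) with the score as colour on a log scale. Batf has a peak over the TSS, Fosl1 and Batf3 have peaks on either side of it, Fosb is flanked at about 3 kb, Jun has a single short peak at 8.83 kb, and Fos and Atf3 have none.

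Among the Fos family the highest score belonged to Fosl1, which encodes Fra-1, a Fos protein without the transactivation domain of c-Fos. It was named by 8 peaks, all within 10 kb of the TSS. The largest lay in intron 1 (chromosome 1, 227756212 to 227759490 on the assembly rn5, 3278 bp) with a score of 107.9 (95% counting interval 98.8 to 118), centred 1964 bp downstream of the TSS and wider than 97.8% of all peaks. The nearest by its centre was the authors' promoter-TSS peak, 1384 bp wide and centred 817 bp upstream, with a score of 40.0 (34.6 to 46.1). The upstream peak ended 125 bp before the TSS and the intronic peak began 325 bp after it, so the TSS sat in a gap of 450 bp between them. A further peak, 965 bp wide and scoring 19.8, was centred 3114 bp upstream, and the other 5, of 150 to 210 bp, scored 2.68 to 5.57. The 8 peaks covered 6437 bp within 10 kb of the TSS, the most of the 7 genes. For 9121 TSS of protein-coding genes whose position could be worked out from the list, the median cover was 1103 bp and the upper quartile 3768 bp. Only TSS named by at least a pair of peaks could be placed, so this background leaves out genes with fewer peaks. Among the 3978 genes with a promoter peak, Fosl1 ranked 1125 by the highest promoter score, which was that of the intronic peak.

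Batf, which encodes a bZIP partner of Jun proteins in lymphocytes, was named by 10 peaks. Its strongest peak (chromosome 6, 118867633 to 118870231, 2598 bp) contained the TSS and was centred 398 bp downstream of it, in intron 1, with a score of 80 (72.3 to 88.4). This was the only peak of any of the 10 genes to contain a TSS, a feature found at 6.15% of all genes. The other 9 peaks all lay upstream, from 1754 to 27195 bp away, and scored from 3.09 to 13.2, so the mark at Batf was a single domain with a scatter of short peaks before the gene. By promoter score Batf ranked 1398.

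Batf3, needed for the development of cross-presenting dendritic cells, was named by 7 peaks within 6162 bp of the TSS. The strongest lay in intron 1 (chromosome 13, 114308991 to 114309995, 1004 bp), centred 788 bp downstream, with a score of 41.9 (36.3 to 48.0). The nearest by its centre was of the smallest width, 659 bp upstream, with a score of 4.54 (2.84 to 6.87). Beyond the strong peak, 2 weaker peaks of 6.19 and 8.04 followed in introns 1 and 2. By its strongest peak, the one of 1004 bp in intron 1, Batf3 ranked 1966 of the 3978 promoter genes, close to their median score of 40.8.

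Fosb, an early response gene whose splice form DeltaFosB accumulates in stimulated neurons, had the mark around it and not at its start. It was named by 7 peaks, 3 upstream and 4 downstream of the TSS. The nearest, 334 bp wide and centred 3184 bp upstream, scored 7.63 (5.37 to 10.5), and the strongest, 842 bp wide and centred 4318 bp upstream, scored 25 (20.7 to 29.8). Within the gene, a peak of 555 bp in exon 4 scored 16.1, a peak in intron 3 scored 3.30 and a peak at the transcription end scored 2.89. Between the edges at 3017 bp upstream and 3180 bp downstream, 6197 bp around the TSS held no peak. Fosb was therefore outside a reach of 1000 bp and inside a reach of 5000 bp, where the count became 4 of 10, against 27.7% of all genes. Fosl1, at 125 bp, and Batf3, at 286 bp, were the genes inside the reach whose peaks did not contain the TSS.

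Fos itself, the founding early response gene, was named by a pair of peaks, both 150 bp wide. They lay 38676 bp downstream with a score of 3.09 (1.73 to 5.10) and 47305 bp upstream with a score of 2.68 (1.43 to 4.59), where the smallest score of the list is 1.86. No peak of any gene lay within 10 kb of the TSS. The assembly limits this locus. In rn5 the Fos and Batf TSS were 2.62 Mb apart, while in the newer assembly GRCr8 the genes start 233 kb apart with Jdp2 between them, so the distances of far peaks hold for rn5 only.

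Jun, which encodes c-Jun, was named by 8 peaks, and all of them lay downstream of the TSS. The nearest was 150 bp wide, centred 8834 bp away, with a score of 2.89 (1.58 to 4.85), above only 2.64% of all scores. Another 6, from 19103 to 65033 bp away, had scores of 2.89 to 4.33. Only the peak at 66514 bp stood above these 7, with 1786 bp and a score of 44.8 (39.0 to 51.1), on chromosome 5 from 117893416 to 117895202. That peak belonged to a cluster of 7 peaks over 7929 bp, of which 5 were assigned to Eqtn, a sperm gene on the far side, with scores of 3.51 to 16.3. The border between the genes named thus runs through the cluster. In the gene order of GRCr8, Mysm1, which no peak names, lies between Jun and Eqtn.

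Atf3 was named by a pair of peaks of the smallest width, centred 36883 and 39297 bp downstream of its TSS, with scores of 3.71 (2.20 to 5.87) and 3.09 (1.73 to 5.10). The Atf3 and Batf3 TSS were 135 kb apart in rn5, with 3 weak peaks of Fam71a (scores of up to 6.39) between them. Batf3 had 2349 bp of peaks within 10 kb and a highest score of 41.9, and Atf3 had no peak within 10 kb and a highest score of 3.71. Within 100 kb of the Atf3 TSS all peaks of any gene covered 600 bp, against a median of 7905 bp over the placed TSS.

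**Figure D2:**
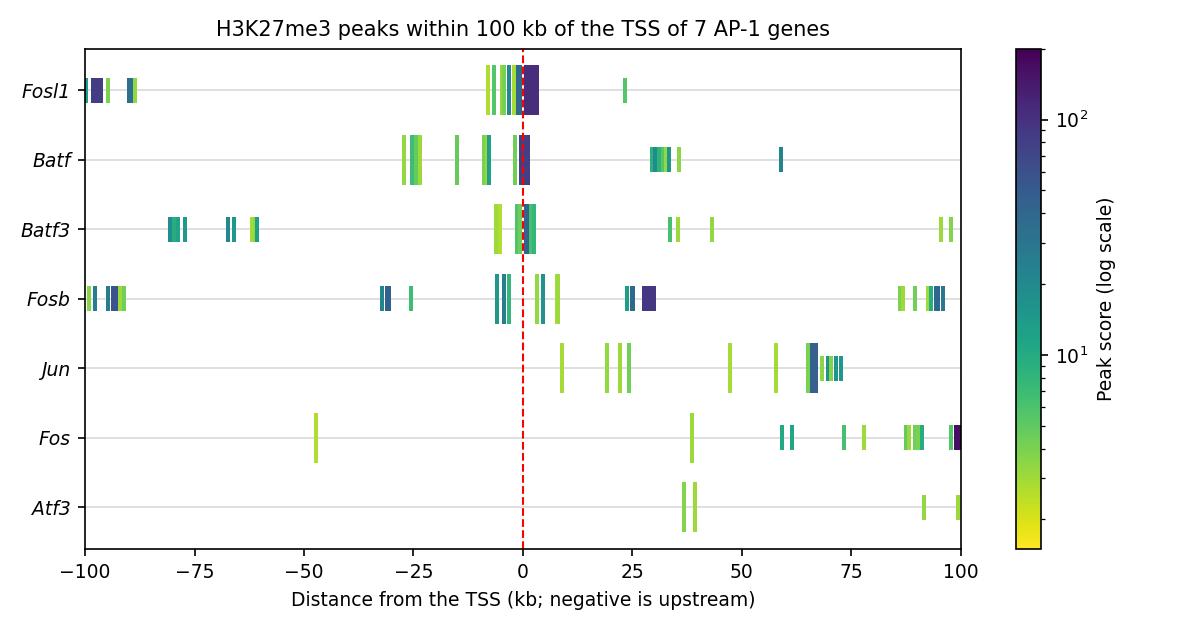
Peaks within 100 kb of the TSS of the same 7 genes (x axis, kb along the direction of transcription), with the score as colour on a log scale; tall boxes are peaks that name the gene, short boxes peaks that name another gene, and narrow peaks are drawn wider than scale. The side upstream of Jun and of Atf3 is empty, and strong peaks of other genes lie on either side of Fosb.

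Peaks assigned to other genes were counted next, since a peak names only its nearest TSS. Around Fosb, peaks of any gene covered 17400 bp within 100 kb, above the upper quartile of 16761 bp, and only 3042 bp of this belonged to Fosb. The strongest of the others lay at Ppm1n, which encodes a protein phosphatase (3220 bp, score 92.8, centred 28.7 kb downstream of the Fosb TSS). It was followed by Klc3, a kinesin light chain gene (56.1, 93.3 kb upstream), Ercc1, a DNA repair gene (45.2, 30.8 kb upstream), Gpr4, a proton-sensing receptor gene (39.6, 94.5 kb downstream), and Rtn2, a reticulon gene (38.2, 24.9 kb downstream). At Fos, as placed in rn5, 11 of the 13 peaks within 100 kb were assigned to Actn1, the alpha-actinin gene. Among them was a peak 4190 bp wide and scoring 165.4 that reached into the window from 101 kb downstream. In the gene order of GRCr8 the genes next to Fos are Tmed10 and Jdp2, so these surroundings hold for rn5 only. Batf shared its surroundings with 8 peaks of Flvcr2, a choline and haem transporter gene, whose highest score was 22.3.

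Jun had the longest empty surroundings of the 7 placed genes. Its TSS lay in a stretch of 926 kb without a peak of any gene, of which 917454 bp were upstream, as far as the peaks of Hook1. Of 9115 placed TSS 1.04% lay in a stretch at least as long, and the median was 24.8 kb. Genes named by no peak or by a single peak are not among the placed TSS, so the share over all genes is not known. The stretch around Atf3 was 241 kb (8.58% at least as long), with 204633 bp of it upstream. That around Fos, as placed in rn5, was 85.8 kb (27.8%). Fosb, Batf3 and Fosl1 had 6.20, 0.870 and 0.450 kb, and at Batf the TSS was covered. These stretches count any peak, however weak, and how much of them reads could be placed on was not tested.

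For the genes named by no peak, the position came from the gene order of GRCr8, with genes that no peak names passed over, on the untested assumption that rn5 has the same order there. Junb, an early response Jun protein gene, lies between Best2 and Rtbdn, whose strongest peaks scored 132.4 and 100. Between their peaks, 55.9 kb of chromosome 19 held no peak. Jund, the Jun gene expressed most steadily across tissues, lies between Pde4c and Gdf15, and 79.7 kb of chromosome 16 between their peaks held none. Fosl2, which encodes Fra-2, lies between Plb1 and Slc4a1ap, with 680 kb of chromosome 6 without a peak. The upper quartile of the stretch around placed TSS was 96.0 kb, and the stretches for Junb and Jund lay below it and that for Fosl2 above it. A gene that no peak names lies in such a stretch by the rule, so these lengths are descriptions. Whether the annotation used by the authors holds these 3 genes was not tested.

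**Figure D3:**
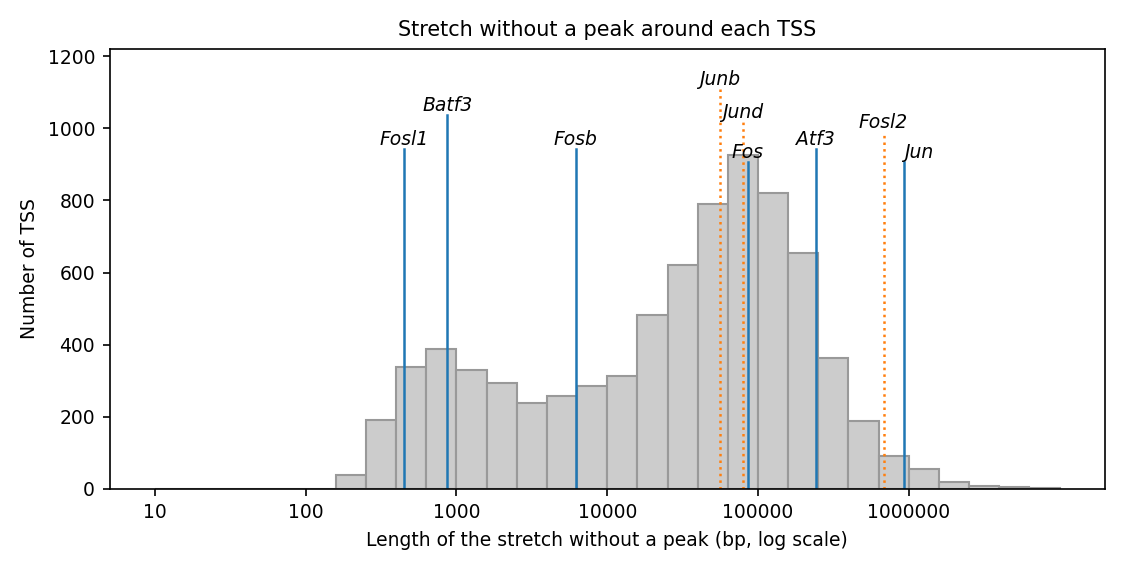
Length of the stretch without a peak around the TSS (x axis, bp on a log scale) for the placed TSS of protein-coding genes that no peak covers (grey bars, number of TSS), with the placed AP-1 genes as solid lines and, as dotted lines, the stretch that should hold Junb, Jund and Fosl2 by gene order. Jun stands far to the right at 926 kb, Fosl1 and Batf3 on the left at under 1000 bp, and Fosb between the groups.

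The promoter sequences of these genes were then set beside the peaks. RefSeq promoters of GRCr8 were matched for 7 of the 10 genes, all but Jun, Fos and Atf3, and the 250 bases before the gene start are shown 5′ to 3′ on the gene's strand, with every CpG in capitals. The peak positions are on rn5, so the sequences are matched by gene and not by coordinates. The first 3 are the genes with a promoter peak, Fosl1 (chr1:212183635-212183884, plus strand), Batf (chr6:111084467-111084716, plus strand) and Batf3 (chr13:105220532-105220781, plus strand). Fosb (chr1:88089185-88089434, minus strand) is shown as the gene flanked by peaks, and Jund (chr16:18769772-18770021, minus strand) as the unnamed gene with the highest CpG ratio.
Fosl1: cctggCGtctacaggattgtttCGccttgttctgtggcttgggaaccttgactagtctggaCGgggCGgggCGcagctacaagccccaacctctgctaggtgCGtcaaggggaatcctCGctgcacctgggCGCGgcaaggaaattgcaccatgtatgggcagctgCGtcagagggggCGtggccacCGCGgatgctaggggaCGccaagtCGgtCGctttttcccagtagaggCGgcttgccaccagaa
Batf: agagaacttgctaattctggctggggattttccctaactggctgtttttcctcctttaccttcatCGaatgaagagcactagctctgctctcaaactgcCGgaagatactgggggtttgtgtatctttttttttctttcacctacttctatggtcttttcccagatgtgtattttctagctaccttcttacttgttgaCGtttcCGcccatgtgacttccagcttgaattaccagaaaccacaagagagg
Batf3: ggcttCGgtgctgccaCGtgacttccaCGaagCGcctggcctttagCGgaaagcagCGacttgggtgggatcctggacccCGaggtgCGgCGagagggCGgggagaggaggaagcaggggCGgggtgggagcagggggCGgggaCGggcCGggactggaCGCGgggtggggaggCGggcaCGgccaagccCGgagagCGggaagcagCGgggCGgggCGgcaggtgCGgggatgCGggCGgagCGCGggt
Fosb: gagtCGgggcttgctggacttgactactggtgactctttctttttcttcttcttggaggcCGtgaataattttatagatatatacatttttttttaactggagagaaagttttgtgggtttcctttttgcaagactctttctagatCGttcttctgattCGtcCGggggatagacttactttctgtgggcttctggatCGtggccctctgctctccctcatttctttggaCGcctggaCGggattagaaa
Jund: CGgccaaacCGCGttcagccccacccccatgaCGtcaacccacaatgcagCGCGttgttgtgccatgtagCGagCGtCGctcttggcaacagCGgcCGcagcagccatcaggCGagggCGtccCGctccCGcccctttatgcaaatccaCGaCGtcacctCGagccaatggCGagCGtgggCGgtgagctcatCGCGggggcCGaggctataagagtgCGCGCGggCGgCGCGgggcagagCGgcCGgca

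The genes with a promoter peak did not share a CpG content in these 250 bases, which need not be the marked sequence. On rn5 the nearest upstream peak ended 584 bp before the Batf3 TSS and 125 bp before the Fosl1 TSS. Batf had 4 CpG in the 250 bases, Fosl1 17 and Batf3 28, against a median of 9 over 19005 protein-coding genes and of 13 over the 3015 of them with a promoter peak. As the ratio of observed to expected CpG, which corrects for the content of C and G, Batf had 0.347 (above 37.2% of genes), Fosl1 0.716 (66.1%) and Batf3 0.937 (87.7%). Of those without a promoter peak, Jund had 32 CpG and a ratio of 1.09 (above 96.7% of genes), Fosl2 32 and 1.084, Junb 19 and 0.700, and Fosb 8 and 0.680. The median ratio was 0.594 over the genes with a promoter peak and 0.523 over all genes. Among the 7 matched genes the highest ratios belonged to Jund and Fosl2, which no peak names. Whether the annotation used by the authors holds them, and how CpG content relates to the mark, was not tested.

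**Figure D4:**
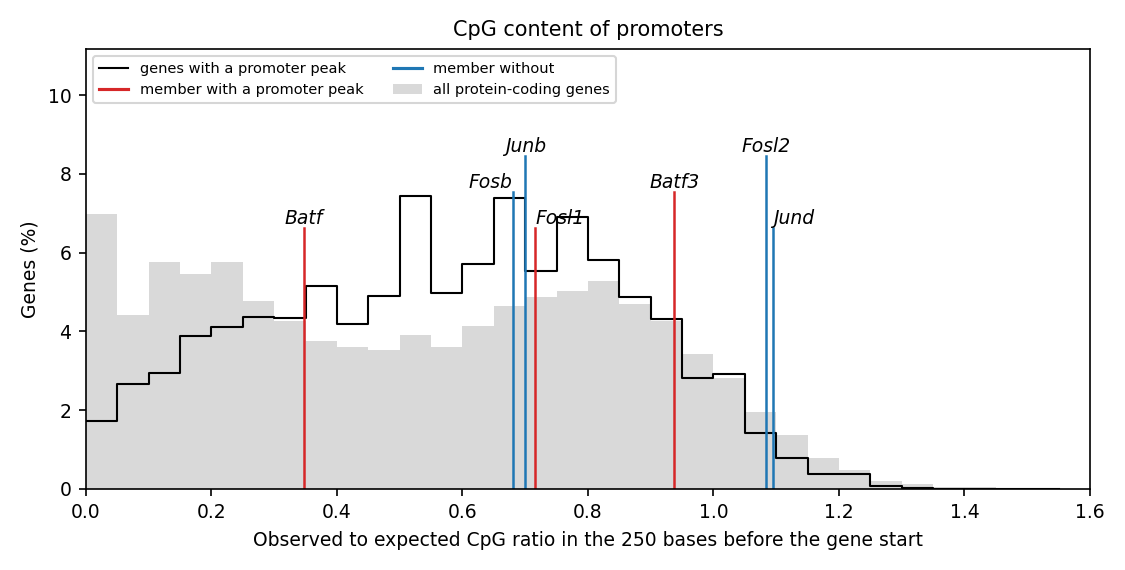
Ratio of observed to expected CpG in the 250 bases before the gene start (x axis) over all protein-coding genes (grey bars, % of genes) and over genes with a promoter peak (black line, % of those genes), with 7 AP-1 genes as vertical lines, red with and blue without a promoter peak. Batf lies low, Fosl1 lies beside Fosb and Junb, and Jund and Fosl2, which no peak names, lie highest.

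Binding motifs of the family itself were searched on both strands of the same 250 bases. The AP-1 motif TGANTCA occurred in none of the 7 promoters and in 5.82% of all promoters. The related cAMP response motif TGACGTCA occurred once, in Jund, and in 2.03% of all promoters, and no TGACGTCA itself holds a TGANTCA. A match is a match of letters only.

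Other bZIP genes and genes of JNK and ERK signalling, the early response and the repair Schwann cell were described from 4 lists. Of 42 other bZIP genes 5 had a promoter peak (11.9%, against 17.2% of all genes), among them the photoreceptor factor Nrl at 107.9, Creb5 at 59.2 and Nfe2l3 at 51.6. Atf1 and Atf2 had no promoter peak. Of 25 JNK and ERK signalling genes, whose pathways phosphorylate and induce AP-1 proteins, 3 had a promoter peak (12%). These were the mixed lineage kinase gene Map3k9 (91.8), Mapk10, the JNK gene best known from neurons (85.8), and Map3k13, with the smallest width and a score of 2.89. Map3k1 and Map3k5 had none. The place of both lists against all genes depended on the reach. Within 5000 bp 14 of the bZIP genes (33.3%) and 7 of the signalling genes (28%) had a peak, against 27.7% of all genes. The share of the signalling genes was then near that of all genes.

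Of 40 early response genes outside the family 17 had a promoter peak (42.5%), with a median promoter score of 23.9, against 40.8 over all genes with a promoter peak. The highest belonged to the zinc finger factors Egr4 (121.3) and Egr3 (104.6), the neuronal activity factor Npas4 (88.7) and the synaptic scaffold gene Homer1 (84.8), and Ier2 and Ier5 had none. A peak that contained the TSS was found at 2 of the 40 genes (5%), which is near the 6.15% of all genes. Within 5000 bp 18 of the 40 had a peak (45%), against 27.7% of all genes. Counting only scores at or above the median left 13 with a promoter peak (32.5%), against 14.7% of all genes. In the top 25% of scores there were 12 (30%), against 12.6%. Atf4, which no peak names, is in both the early response and the other bZIP list. Of 29 genes of the repair Schwann cell, among them genes known to depend on c-Jun, 18 (62.1%) had a promoter peak with a median score of 197, and 10 had a peak over the TSS. Sox2 (1929.9), Igf2 (508.5), Gdnf (480.6) and Shh (450.7) led, and L1cam and Gfap had none. The largest score of the AP-1 genes, 107.9 at Fosl1, lay below 197, the median over the 18 repair genes with a promoter peak. The lists were chosen with results of these data known, so their counts are descriptions.

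**Figure D5:**
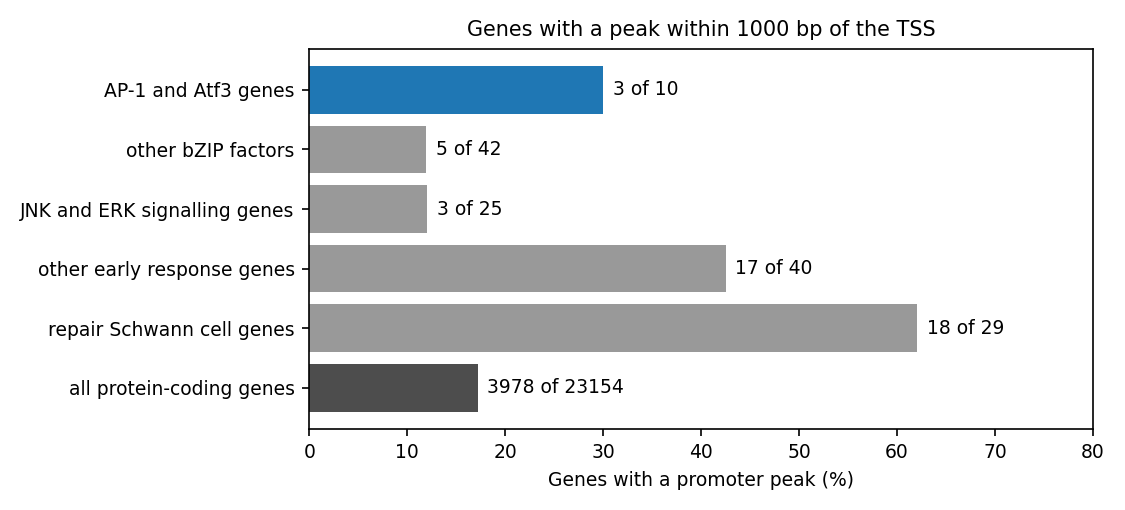
Share of genes with a promoter peak (x axis, %) for the AP-1 and Atf3 genes (blue), 4 lists of related genes (light grey) and all protein-coding genes (dark grey), with the counts beside each bar and no error, since the genes of a list are not replicates. At the reach of 1000 bp the AP-1 genes stand at 3 of 10. The bZIP and signalling lists lie below and the early response and repair lists above.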

How the data were processed

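Per the labels' protocols, micrococcal nuclease was used to cut nerve chromatin before the H3K27me3 pull-down, and inputs were sequenced beside it. The submitters' processing notes name CASAVA 1.8.2, Bowtie and HOMER. Per the file headers, a HOMER peak list was annotated against rn5. The sources used here do not state the peak settings, the use of the input or how libraries were combined, and the depth per library is unknown.

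Each peak's score, its width and its distance to the TSS in bp are values deposited by the authors. Scores under 10 (97601 peaks) were whole multiples of 0.206263 within 0.005 in 100% of cases, and score intervals are exact Poisson intervals over these steps. Gene names were matched to a GRCr8 gene table by gene identifier, then symbol (10577 of 10647 names). TSS positions in rn5 were worked out where at least a pair of peaks named the TSS, from centres and signed distances. This and the promoter count were tested on simulated data. Python 3.11.15, pandas 2.3.3, numpy 2.4.6 and scipy 1.17.1 were used. All 10 members were named, with, per list, the 4 highest promoter scores (1 gene is not reported here) and up to 2 genes without a promoter peak, and adjacent genes with peaks within 100 kb; farther neighbours were named after their values were seen. Members and lists were chosen with earlier results of these data known. Promoter reach, score and width minimum, merging of peaks, distance to the edge and synonyms were varied.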

Additional observations from a re-analysis of the deposited data

How the results depend on the processing

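Of the 10 genes, 3 kept a promoter peak when only scores at or above the median, the top 25% of scores or peaks wider than 150 bp were counted, and when peaks of a TSS within 5000 bp were merged. The same genes, Fosl1, Batf and Batf3, held it in each of these settings. Over all genes the shares in these settings were 14.7%, 12.6%, 15.0% and 17.8%, in the order given. With a reach of 0 bp, 1 of the 10 genes had one (Batf), against 6.15% of all genes. Under the authors' promoter-TSS class there were 2 (Fosl1 and Batf3), against 8.27% of all genes. With the TSS inside the peak the lists fell to 2 other bZIP (4.76%), 1 signalling (4%), 2 early response (5%) and 10 repair genes (34.5%). The share of all genes was 6.15%. With a reach of 5000 bp other bZIP genes rose to 14 (33.3%) and signalling genes to 7 (28%), against 27.7% of all genes. Neither list was then below all genes. The promoter-TSS class gave 2 other bZIP (4.76%), 2 signalling (8%), 5 early response (12.5%) and 9 repair genes (31.0%), against 8.27% of all genes. The median nearest distance of 3184 bp became 817 bp under each score or width minimum, since Fos and Atf3 then have no peak, and 3017 bp from the nearer edge. Synonyms added no gene. Under a score at or above the median, the nearest peak of Jun was the one at 66514 bp. No paired analysis was possible because the list pools the libraries, and for the same reason no library could be left out.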

Other observations

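Of the 44 AP-1 peaks, 15 (34.1%) were centred in an annotated repeat, against 31.1% of all peaks, and 34 (77.3%) were intergenic, against 74.7%.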
